A study of Mus musculus with 9 samples.

Results

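Transcript levels of 10 tight junction genes were examined in the jejunum of irradiated mice: the claudins Cldn2, Cldn3, Cldn4, Cldn7, Cldn8, Cldn15 and Cldn23, the tight junction membrane proteins Ocln (occludin) and Marveld2 (tricellulin), and the scaffold gene Tjp1 (ZO-1). They were taken by Ensembl identifier from a table of 31685 genes, and all 10 were found there. The table covers 9 male wild-type C57BL/6J mice aged 6 to 8 weeks, with jejunum taken on day 3. The control group (n = 3) was untreated. The TAI group (n = 3) received 12 Gy of total abdominal irradiation at 75 cGy per min, and the series design gives phosphate-buffered saline as its vehicle. The TAI/IVIg group (n = 3) received the same irradiation and 500 mg/kg of intravenous immunoglobulin within 1 h, with further injections every 3 days. No group received IVIg without irradiation.

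Tight junctions seal the space between neighbouring epithelial cells near the luminal surface and set which ions and solutes pass between them. Claudins are membrane proteins that polymerise into the strands of the junction, where some close the paracellular route and others form ion-selective pores. In the small intestine, claudin-2 and claudin-15 form cation and water channels that supply luminal sodium for nutrient uptake, whereas claudin-3 and claudin-4 are counted among the sealing claudins, and claudin-7 lies largely along the basolateral membrane, where it binds EpCAM. Occludin and tricellulin shape the strands at contacts between pairs of cells and at tricellular corners, and ZO-1 ties the strands to actin.

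The authors deposited values as FPKM, which are reads divided by the exon length of the gene and by the library total. Whole reads could be recovered from them, and the libraries held 16284530 to 18244736 reads (median 17312589), with overlapping ranges in the 3 groups. The labels call the tissue epithelial, while the methods describe jejunal tissue. Markers of other compartments were detected in every mouse, with summed smooth muscle markers at 112 to 762 FPKM and fibroblast markers at 19.9 to 81.5 FPKM, beside 3856 to 5242 FPKM for the 6 pan-epithelial markers. In bulk tissue, fewer cells of a type and less RNA per cell cannot be told apart. Differences are given in log2(FPKM + 1), which understates changes of low genes, and a gene is called here at a Benjamini-Hochberg adjusted p below 0.05 in limma over the 13056 genes that reached 1 FPKM in 3 mice or more.

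In control jejunum, Cldn7 stood above the other members with 318 FPKM ± 16.6 (SD, n = 3). Cldn3 at 125 FPKM ± 7.21 and Cldn15 at 117 FPKM ± 25.0 followed, and their mice overlapped. Cldn2 at 52.1 FPKM and Cldn4 at 45.3 FPKM also overlapped each other, as did Ocln at 25.5 FPKM and Cldn23 at 23.8 FPKM. Tjp1 lay at 19.7 FPKM and Marveld2 at 12.1 FPKM, each apart from its neighbours in this order. Cldn8 was at 0.243 FPKM, which rested on 8, 9 and 13 reads in the control mice, and it was the member that did not pass the filter for testing. The order differed in the irradiated groups. In the TAI mice Cldn15, Cldn4 and Cldn3 (113, 101 and 95.4 FPKM) overlapped from each to the next behind Cldn7 at 528 FPKM, and Cldn2 at 20.6 FPKM had joined Ocln (21.3 FPKM) and Tjp1 (21.1 FPKM). In the TAI/IVIg mice, Cldn2 at 7.06 FPKM ranked below Marveld2 at 9.75 FPKM, with overlapping mice, and Cldn15 at 194 FPKM stood apart from Cldn3 at 112 FPKM.

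**Figure D1:**
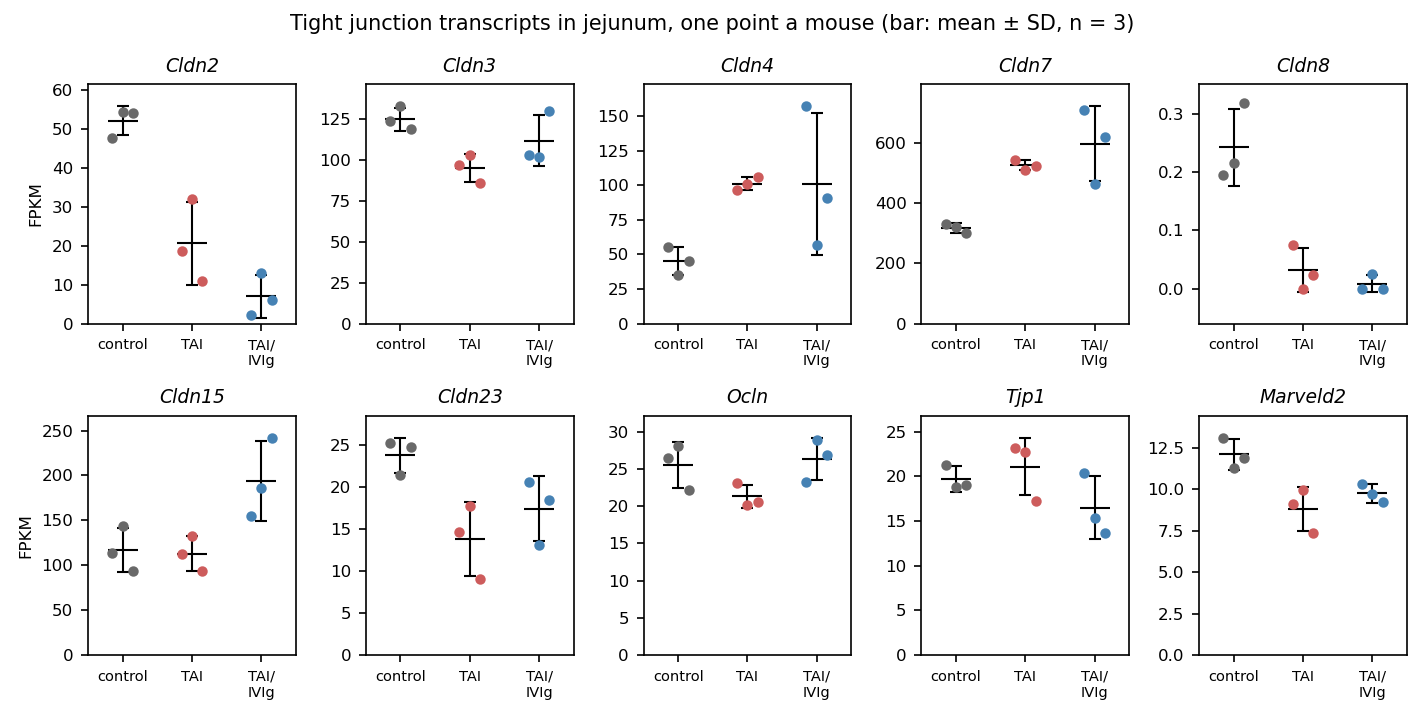
FPKM (vertical axis) of each of the 10 genes in the control, TAI and TAI/IVIg mice, 1 point a mouse, with bars for the mean and SD. Cldn2 was between 47.8 and 54.5 FPKM in the control mice and at 13.1 FPKM or below in the TAI/IVIg mice, while every irradiated mouse exceeded every control mouse in Cldn4 and Cldn7.

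In total, 4 of the 9 members tested were called in TAI against control, against 34.9% of all genes tested, and the members' share of 4 in 9 was near that background. Cldn4 and Cldn7 rose (8.81% of all genes were called higher), and Cldn23 and Marveld2 fell (26.1% were called lower). In TAI/IVIg against control, 4 of the 9 were called as well, beside 46.4% of all genes, again near that share. Cldn4, Cldn7 and Cldn15 rose (9.06% of all genes were called higher) and Cldn2 fell (37.4% were called lower). These comparisons share the control mice. Counted by mice alone, 2 members were higher and 4 lower in every TAI mouse than in every control mouse. Of the 13056 genes tested, 1966 were higher and 4955 lower in this way (53.0% together). In every TAI/IVIg mouse 3 members were higher and 3 lower than in every control mouse, beside 1498 and 5782 of all genes tested (55.8% together). No member was called in TAI/IVIg against TAI, where 0% of all genes passed the adjusted threshold. The median difference of all genes tested was -0.23 in TAI against control, -0.39 in TAI/IVIg against control and -0.13 in TAI/IVIg against TAI, so that the members are also given relative to it. With library medians set equal, the genes called higher and lower went from 1150 and 3411 to 2159 and 1823 in TAI against control, and from 1183 and 4880 to 2880 and 1894 in TAI/IVIg against control.

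**Figure D2:**
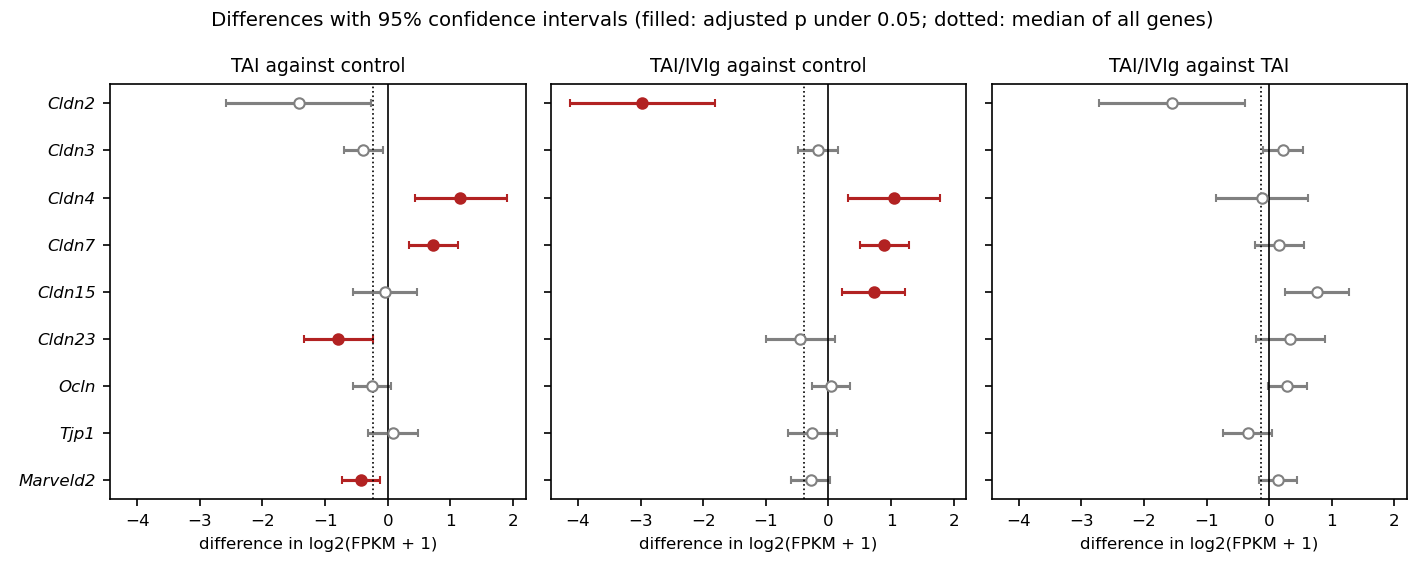
Differences in log2(FPKM + 1) (horizontal axis) with 95% confidence intervals for the 9 members tested, in a panel per comparison. Filled points had an adjusted p below 0.05 and the dotted line is the median of all genes, at -0.23, -0.39 and -0.13. Cldn4 and Cldn7 lay to the right of 0 in both comparisons with control, and Cldn2 lay farthest to the left in all 3 panels.

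Cldn2 (chromosome X, 139800828 to 139811386, GRCm38, plus strand) is known for its expression in crypt cells and in leaky epithelia. It was at 47.82, 54.53 and 54.10 FPKM in the control mice, at 18.69, 32.10 and 10.98 FPKM in the TAI mice, and at 2.19, 13.06 and 5.94 FPKM in the TAI/IVIg mice. Both irradiated groups lay wholly below the controls, and they overlapped each other, since TAI/IVIg mouse 2 was above TAI mouse 3. Cldn2 fell by 2.97 ± 0.51 (SE) on the log2 scale in TAI/IVIg against control (95% confidence interval -4.13 to -1.81, limma adjusted p = 0.00231), the largest change among the members in either direction and -2.58 relative to the median gene. It stayed called with each mouse left out and under every scaling run. In TAI against control the difference was -1.42 ± 0.51 (limma adjusted p = 0.0582) and missed the threshold. It passed with the replicate number as a block (adjusted p = 0.0355) and when TAI mouse 2 was left out (difference -1.79, adjusted p = 0.0415). It also passed without TAI/IVIg mouse 1 (0.0222) or mouse 2 (0.026).

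Cldn15 (chromosome 5, 136966616 to 136975858, plus strand) is the other pore-forming claudin of the small intestine and is found along crypt and villus. Its level was 114, 144 and 94.0 FPKM in the control mice, 112, 133 and 93.4 FPKM in the TAI mice, and 155, 186 and 242 FPKM in the TAI/IVIg mice. The control and TAI ranges nearly coincided, and every TAI/IVIg mouse was above both. Cldn15 rose in TAI/IVIg against control by 0.72 ± 0.22 (limma adjusted p = 0.0268), or 1.11 relative to the median gene, while its difference in TAI against control was -0.05 (95% interval -0.55 to 0.46), a sign that turned with 4 other scalings (0.12 to 0.24). The call in TAI/IVIg against control was lost without control mouse 1 (adjusted p = 0.0595), control mouse 3 (0.0947) or TAI/IVIg mouse 3 (0.0932). The ratio of Cldn15 to Cldn2 was 1.74 to 2.64 in the control mice, 4.14 to 8.51 in the TAI mice and 14.2 to 70.6 in the TAI/IVIg mice, without overlap between any of the groups. The pair was chosen with earlier results of these data known, and the share of other gene pairs that separate the groups was not computed. In TAI/IVIg against TAI neither gene was called by limma (adjusted p = 0.353 for Cldn15 and 0.354 for Cldn2), and Cldn2 alone overlapped.

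Among the claudins not counted as pores, Cldn4 and Cldn7 were higher in all irradiated mice. Cldn4 (chromosome 5, 134945119 to 134946934, minus strand) encodes a claudin known to tighten epithelia when it is expressed in cultured cells. Its values were 55.5, 35.1 and 45.3 FPKM in the control mice, 96.5, 101 and 106 FPKM in the TAI mice, and 157, 56.4 and 90.5 FPKM in the TAI/IVIg mice. The TAI mice lay close together, whereas TAI/IVIg mouse 2 was barely above the highest control mouse. Cldn4 rose by 1.16 ± 0.33 in TAI against control (limma adjusted p = 0.0241) and by 1.05 ± 0.33 in TAI/IVIg against control (limma adjusted p = 0.0277), which was 1.40 and 1.44 relative to the median gene. The first call was lost without control mouse 2 (difference 1.00, adjusted p = 0.083), control mouse 3 (0.0637) or any TAI mouse (0.0581 to 0.0664). The second was lost without control mouse 2 (0.0885), control mouse 3 (0.0676), TAI/IVIg mouse 3 (0.0636) or TAI/IVIg mouse 1, where the difference went to 0.67 (adjusted p = 0.0563), and in the model of the 6 mice compared (0.0612). Both were lost without the filter on low values (0.0604 and 0.0671).

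Cldn7 (chromosome 11, 69964779 to 69967885, plus strand) was the most abundant claudin in every mouse. It was at 332, 323 and 300 FPKM in the control mice, 545, 513 and 526 FPKM in the TAI mice, and 711, 464 and 623 FPKM in the TAI/IVIg mice. No irradiated mouse reached down to the control range. Cldn7 rose by 0.73 ± 0.17 in TAI against control (limma adjusted p = 0.0127) and by 0.89 ± 0.17 in TAI/IVIg against control (limma adjusted p = 0.00379), or 0.97 and 1.28 relative to the median gene. It kept both calls with every mouse left out except in TAI against control without TAI mouse 1 (adjusted p = 0.0549). Its partner Epcam, a cell adhesion molecule of epithelia, was at 870 to 1044 FPKM in the control mice, 1217 to 1512 FPKM in the TAI mice and 1155 to 1748 FPKM in the TAI/IVIg mice, and rose in TAI/IVIg against control (0.59, limma adjusted p = 0.0401). The Epcam call was lost when any mouse but TAI/IVIg mouse 2 was left out (adjusted p = 0.0503 to 0.112), without the filter (0.128), with quantile normalization (0.134), with the replicate block (0.0543) and in the model of the 6 mice compared (0.0862). The level of Cldn7 was 30.9 to 34.4% of that of Epcam in the control mice, 34.8 to 42.2% in the TAI mice and 39.3 to 40.7% in the TAI/IVIg mice.

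Cldn3 (chromosome 5, 134986214 to 134987472, plus strand) lies 39279 bases from Cldn4, with no protein-coding gene between them. Unlike its neighbour it was not higher after irradiation, with 124, 133 and 119 FPKM in the control mice, 97.2, 103 and 86.2 FPKM in the TAI mice, and 103, 102 and 130 FPKM in the TAI/IVIg mice. The TAI mice were all below the controls, and the difference of -0.39 ± 0.14 missed the threshold (limma adjusted p = 0.0563) in the model of all 9 mice, and passed it when TAI/IVIg mouse 3 was left out (0.0459), in the model of the 6 mice compared (0.0473) and with a mean FPKM of at least 5 (0.0489). In TAI/IVIg against control the groups overlapped (-0.17, limma adjusted p = 0.336), and the sign turned with 4 other scalings. The ratio of Cldn4 to Cldn3 was 0.264 to 0.449 in the control mice, 0.978 to 1.23 in the TAI mice and 0.550 to 1.52 in the TAI/IVIg mice. Exons of Cldn3 share 40 bases (3.18% of its exon length) with the antisense gene Wbscr25, which was at 0.101 to 0.144 FPKM in the group means, and the strand setting of the counting is not given in the sources used here.

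Cldn23 and Cldn8 were the lowest of the member claudins in the control mice. Cldn23 (chromosome 8, 35824712 to 35826559, minus strand), a claudin of differentiated gut epithelium, was at 25.2, 21.4 and 24.8 FPKM in the control mice, 14.6, 17.7 and 9.02 FPKM in the TAI mice, and 20.6, 13.1 and 18.4 FPKM in the TAI/IVIg mice. It fell by 0.79 ± 0.24 on the log2 scale in TAI against control (limma adjusted p = 0.0334), which was -0.56 relative to the median gene. The call was lost with library medians set equal (-0.50, adjusted p = 0.199), with the 3 other scalings, and without any control mouse, TAI mouse 1 or TAI mouse 3 (adjusted p = 0.0627 to 0.0922), and without the filter (0.0756). Against control, the TAI/IVIg difference was -0.45 (limma adjusted p = 0.149), with every TAI/IVIg mouse below the controls, and its sign turned with library medians set equal (0.04) and with median-ratio library sizes (0.02). Cldn8 (chromosome 16, 88560828 to 88563183, minus strand), a sealing claudin of distal colon and kidney, had 3, 0 and 1 reads in the TAI mice and 0, 1 and 0 reads in the TAI/IVIg mice, against 8, 9 and 13 reads in the control mice. In the fit without the filter Cldn8 was called lower in both comparisons with control (adjusted p = 0.00876 and 0.00401), on 4 and 1 reads in all beside 30. At these counts no fold change is given.

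Of the occludin family and the scaffold, Marveld2 was called, in TAI against control. Ocln (chromosome 13, 100496507 to 100552718, minus strand) was at 26.4, 28.1 and 22.1 FPKM in the control mice, 23.1, 20.2 and 20.6 FPKM in the TAI mice, and 23.2, 28.9 and 26.8 FPKM in the TAI/IVIg mice. The control range overlapped both others, and no difference from control passed the threshold (-0.25, 95% interval -0.55 to 0.06, in TAI and 0.04, -0.27 to 0.35, in TAI/IVIg). With library medians set equal, Ocln was called higher in TAI/IVIg against control (0.53, adjusted p = 0.0494), as it was with median-ratio library sizes (0.55, adjusted p = 0.0482), and its sign in TAI against control turned (0.04). Marveld2 (chromosome 13, 100595957 to 100616971, minus strand) lies 43238 bases from Ocln, with no protein-coding gene between them. It was at 13.1, 11.3 and 11.9 FPKM in the control mice, 9.13, 9.93 and 7.33 FPKM in the TAI mice, and 10.3, 9.73 and 9.20 FPKM in the TAI/IVIg mice, so every irradiated mouse was below every control mouse.

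Marveld2 fell by 0.42 ± 0.13 on the log2 scale in TAI against control (limma adjusted p = 0.0379), or -0.19 relative to the median gene. This call was lost with library medians set equal (-0.14, adjusted p = 0.555), with the 3 other scalings, and without any control mouse, TAI mouse 1, TAI mouse 3, TAI/IVIg mouse 2 or TAI/IVIg mouse 3 (adjusted p = 0.0502 to 0.114). It was also lost without the filter (0.0624) and in the model of the 6 mice compared (0.0553). Its difference between TAI/IVIg and control was -0.28 (limma adjusted p = 0.114), and the sign turned with 4 other scalings. Tjp1 (chromosome 7, 65296165 to 65527781, minus strand) was at 21.3, 18.8 and 19.0 FPKM in the control mice, 23.2, 22.7 and 17.3 FPKM in the TAI mice, and 20.4, 15.3 and 13.7 FPKM in the TAI/IVIg mice. All 3 groups overlapped, and the differences from control were 0.08 (95% interval -0.31 to 0.48) in TAI and -0.26 (-0.65 to 0.13) in TAI/IVIg, the second with a sign that turned under 4 other scalings.

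In TAI/IVIg against TAI, no member was called by limma. At an unadjusted p below 0.05 limma gave 2 of the 9 members, Cldn15 (0.77 ± 0.22, adjusted p = 0.353) and Cldn2 (-1.55 ± 0.51, adjusted p = 0.354), beside 1680 of the 13056 genes tested, or 12.9%. Over all genes, limma voom on the recovered reads also called 0 in this comparison, while 3 genes were called with the replicate block and 4 without the filter. Cldn15 and Ocln were higher in every TAI/IVIg mouse than in every TAI mouse, as were 3.09% of all genes tested. The intervals of the other differences reached from -0.85 to 0.62 for Cldn4, from -0.23 to 0.55 for Cldn7 and from -0.21 to 0.89 for Cldn23.

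The claudin transcripts were also compared as a pool within each mouse. The 20 claudins in the table summed to 646 to 722 FPKM in the control mice, 842 to 914 FPKM in the TAI mice and 845 to 1158 FPKM in the TAI/IVIg mice, and the 7 member claudins made up 98.5 to 99.2% of that sum in all mice. Cldn7 supplied 46.0% ± 1.16 (SD, n = 3) of claudin FPKM in the control mice, 59.8% ± 3.27 in the TAI mice and 57.3% ± 3.55 in the TAI/IVIg mice. The share of Cldn3 was 18.1% ± 0.524 in the control mice, 10.8% ± 0.516 in the TAI mice and 10.9% ± 1.71 in the TAI/IVIg mice, so that a smaller part of a larger pool was Cldn3 in every irradiated mouse. Cldn2 went from 7.57% ± 0.801 through 2.30% ± 1.12 to 0.755% ± 0.706, and Cldn23 from 3.46% ± 0.449 to 1.55% ± 0.438 and 1.66% ± 0.116. Cldn4 was 6.58% ± 1.55 of the pool in the control mice, 11.5% ± 0.982 in the TAI mice and 9.44% ± 3.66 in the TAI/IVIg mice. Cldn15 was 16.9% ± 2.75, 12.7% ± 1.74 and 19.0% ± 4.87 of it, with ranges of 14.6 to 19.9%, 11.1 to 14.6% and 13.4 to 22.0%. Cldn2 and Cldn15 together made up 22.9 to 27.5% in the control mice, 12.4 to 18.1% in the TAI mice and 13.6 to 23.5% in the TAI/IVIg mice.

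**Figure D3:**
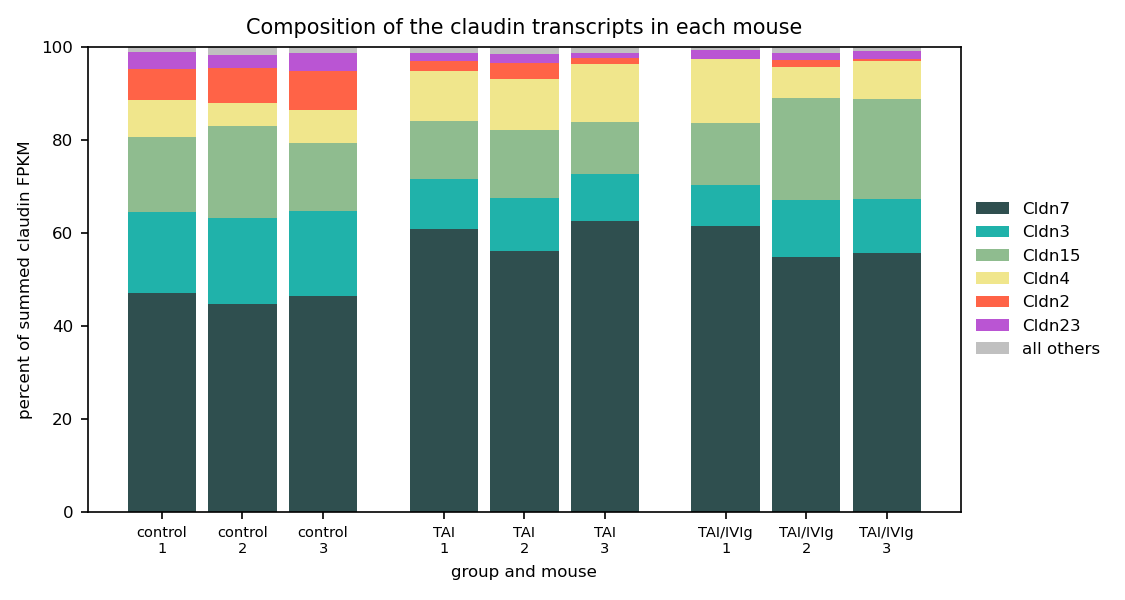
Percent of the summed claudin FPKM (vertical axis) held by each claudin in each of the 9 mice. The Cldn7 segment grew from 46.0% on average in the control mice to 59.8% in the TAI mice and 57.3% in the TAI/IVIg mice, and the Cldn2 segment shrank from 7.57% to 2.30% and 0.755%.

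Of the 13 other claudins in the table, Cldn12 and Cldn5 passed the filter. Cldn12, a claudin without the usual scaffold-binding end, was at 7.05 FPKM in control, 10.1 FPKM in TAI and 9.19 FPKM in TAI/IVIg mice, and neither difference from control was called (0.45, limma adjusted p = 0.0673, and 0.34, limma adjusted p = 0.132). With the 4 other scalings Cldn12 was called higher in TAI (0.63 to 0.76, adjusted p = 0.0129 to 0.039) and in TAI/IVIg (0.77 to 0.89, adjusted p = 0.00989 to 0.0121). Cldn5, the claudin of endothelium, was at 1.53, 1.12 and 0.625 FPKM, and was not called either (-0.20, limma adjusted p = 0.535, and -0.58, limma adjusted p = 0.0685). The remaining 11 had at most 0.650 FPKM in any mouse.

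The sequence before the start site was read for the claudins with a call in TAI/IVIg against control, to show what stands beside genes that moved in the same or in opposite directions. RefSeq (GRCm38.p6) gave a window for 8 of the 10 members, and the 250 bases before the start are printed 5′ to 3′ on the gene's strand. Capitals mark matches, on either strand, to 5 motifs: TTTATG (the CDX core), TCAAAG (the TCF/LEF core), TGANTCA (AP-1), AACCNGTT (grainyhead-like factors) and CGGAAG (the ETS core).
Cldn2, chrX:139800558-139800807, plus strand: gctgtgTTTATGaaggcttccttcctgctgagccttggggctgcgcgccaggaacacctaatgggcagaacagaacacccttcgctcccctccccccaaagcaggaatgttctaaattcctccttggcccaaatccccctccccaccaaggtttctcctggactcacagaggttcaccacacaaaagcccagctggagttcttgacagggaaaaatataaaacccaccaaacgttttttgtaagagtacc
Cldn15, chr5:136967619-136967868, plus strand: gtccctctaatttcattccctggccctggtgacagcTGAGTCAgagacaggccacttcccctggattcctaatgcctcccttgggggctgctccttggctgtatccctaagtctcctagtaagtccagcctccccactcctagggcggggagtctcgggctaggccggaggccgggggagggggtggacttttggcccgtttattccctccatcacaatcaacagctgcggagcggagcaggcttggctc
Cldn4, chr5:134946935-134947184, minus strand: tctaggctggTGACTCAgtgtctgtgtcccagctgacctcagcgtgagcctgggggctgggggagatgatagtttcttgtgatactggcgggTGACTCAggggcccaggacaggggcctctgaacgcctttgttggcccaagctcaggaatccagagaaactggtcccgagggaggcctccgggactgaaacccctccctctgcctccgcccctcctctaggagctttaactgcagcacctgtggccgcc
Cldn7, chr11:69964529-69964778, plus strand: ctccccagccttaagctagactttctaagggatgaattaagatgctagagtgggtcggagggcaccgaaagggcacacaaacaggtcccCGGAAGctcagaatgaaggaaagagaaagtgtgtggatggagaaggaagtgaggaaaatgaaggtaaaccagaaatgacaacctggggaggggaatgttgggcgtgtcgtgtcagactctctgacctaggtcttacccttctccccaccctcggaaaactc
The Cldn2 window held a CDX core 244 to 239 bases before the start, which 10.8% of all 32851 windows hold. Cldn4 held AP-1 motifs at 240 to 234 and at 158 to 152 bases before the start, and Cldn15 held an AP-1 motif at 214 to 208 bases, a motif present in 6.75% of all windows. Cldn7 held an ETS core 161 to 156 bases before this start. Its second window and the window of Tjp1 also held the motif, which is in 13.6% of all windows. No match overlapped another. No member window matched the TCF/LEF core (13.8% of all windows) or the grainyhead-like motif (1.79%). The Cldn15 start in RefSeq lies 1253 bases inside the first start of the gene in GENCODE M21, and 25 bases of its window are annotated as exon. The start of the second Cldn7 window lies 642 bases inside, and 221 of its 250 bases are exon of Cldn7. The Tjp1 start lies 156537 bases inside the first start of that gene. A match is a match of letters and no evidence of binding.

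A list of epithelial and mesenchymal transcription factors, among them an ETS, grainyhead-like and CDX genes, was measured in the same libraries, and held no AP-1 or TCF/LEF gene. The epithelial ETS factor Elf3 rose in both comparisons with control (0.96, limma adjusted p = 0.0128, and 0.84, limma adjusted p = 0.0166), from 122 FPKM to 236 and 223 FPKM. The intestinal homeobox gene Cdx1 fell in both (-0.70, limma adjusted p = 0.0122, and -0.53, limma adjusted p = 0.0285), and Cdx2 fell in TAI (-0.66, limma adjusted p = 0.0236), with -0.45 in TAI/IVIg (limma adjusted p = 0.0695). Of the 17 epithelial and mesenchymal factors tested, 1 was called higher and 4 lower in TAI, where 8.81% and 26.1% of all genes were. In TAI/IVIg 2 were called higher and 3 lower, where 9.06% and 37.4% of all genes were. Ovol2, which restrains mesenchymal genes, fell in TAI (-1.03, limma adjusted p = 0.0224) and was at -0.21 in TAI/IVIg (limma adjusted p = 0.546). Its levels were 3.28 FPKM in control, 1.13 FPKM in TAI and 2.83 FPKM in TAI/IVIg mice. The difference of 0.81 between the irradiated groups was not called (limma adjusted p = 0.359). Ovol1 rose in TAI/IVIg (0.61, limma adjusted p = 0.0125). The other calls of the list, named after their values were seen, were Grhl2, a grainyhead-like factor, which fell in TAI/IVIg (-0.55, limma adjusted p = 0.0254) from 1.19 FPKM to 0.491 FPKM, and Klf5, a factor of crypt cells, which fell in both (-0.52, limma adjusted p = 0.0238, and -0.51, limma adjusted p = 0.019).

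Of the other listed junction genes, 90 of 106 were tested. In TAI against control 14 were called higher and 9 lower, with a median of 0.12 beside -0.23 for all genes. In TAI/IVIg against control 17 were called higher and 15 lower, with a median of -0.09 beside -0.39. Of all genes tested, 8.81% were called higher and 26.1% lower in TAI, and 9.06% and 37.4% in TAI/IVIg. The counts of the lists that follow are to be read beside these shares. None of the 90 genes was called in TAI/IVIg against TAI by limma. There 14 were at an unadjusted p below 0.05, beside 12.9% of all genes tested. The longest list was the tight junction plaque, the layer beneath the strands. In TAI 5 of its 23 genes were called higher and 2 lower, where 8.81% and 26.1% of all genes were, and in TAI/IVIg 7 were called higher and 4 lower, where 9.06% and 37.4% were. Amotl2, an angiomotin that binds actin and polarity proteins, rose from 2.60 FPKM to 8.47 FPKM in TAI (1.40, limma adjusted p = 0.000916) and 7.44 FPKM in TAI/IVIg (1.21, limma adjusted p = 0.000904). Pals1 and Patj, partners in the Crumbs polarity complex, rose as well, by 1.02 and 0.93 in TAI and by 0.79 and 0.91 in TAI/IVIg. Ybx3 (ZONAB), a Y-box protein that shuttles between ZO-1 and the nucleus, fell from 53.5 FPKM to 20.2 FPKM in TAI (-1.33, limma adjusted p = 0.00466) and 12.0 FPKM in TAI/IVIg (-2.04, limma adjusted p = 0.000615). The polarity gene Pard6a, a low gene, fell in both comparisons (-0.65 and -0.64), from 2.04 FPKM to 0.939 and 0.931 FPKM. Prkci, an atypical protein kinase C, fell in TAI/IVIg (-0.50).

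Among the other junction membrane proteins, Marveld3, the third member of the occludin family, rose in both comparisons (0.62, limma adjusted p = 0.0286, and 0.59, limma adjusted p = 0.0267), while Marveld2 fell in TAI and Ocln was not called. Ildr1, an angulin that recruits tricellulin to tricellular corners, fell in TAI/IVIg (-1.12, limma adjusted p = 0.0347) and was at -0.34 in TAI (limma adjusted p = 0.498). Its levels were 4.07 FPKM in control, 3.03 FPKM in TAI and 1.36 FPKM in TAI/IVIg mice. Esam, an adhesion molecule of endothelium, rose in TAI (0.67, limma adjusted p = 0.0172), where endothelial markers summed to 22.4 to 28.8 FPKM beside 14.6 to 23.3 FPKM in the control mice. Their part in it was not tested. In this list 2 of 12 were called higher and 0 lower in TAI, and 1 higher and 1 lower in TAI/IVIg.

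In the adherens junction, 2 of 11 genes were called higher and 1 lower in TAI, and 1 higher and 3 lower in TAI/IVIg. Ctnnb1 (β-catenin) and Afdn (afadin) rose in TAI by 0.43 and 0.35. In TAI/IVIg neither was called (0.35 and 0.22, limma adjusted p = 0.0717 and 0.131), with every mouse above the controls. Ctnnb1 overlapped between the irradiated groups (-0.08 in TAI/IVIg against TAI, not called). Nectin3 rose in TAI/IVIg by 0.45, and Nectin2 fell in both comparisons with control (-0.58 and -0.63). Nectin1 and Pvr, of the same family of adhesion receptors, fell in TAI/IVIg (-0.52 and -0.70), Nectin1 from 1.56 FPKM to 0.787 FPKM. Of 9 desmosomal genes, 2 were called higher and 0 lower in TAI, and 3 higher and 1 lower in TAI/IVIg. The desmosomal linkers Dsp and Jup rose in both comparisons, by 0.70 and 0.61 in TAI and by 0.72 and 0.71 in TAI/IVIg. In TAI/IVIg Pkp3 rose by 0.38 and Pkp1 fell (-1.12), from 2.12 FPKM to 0.348 FPKM.

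Membrane proteases and their inhibitors govern cleavage of EpCAM. The protease gene St14 (matriptase) rose in both comparisons (0.59, limma adjusted p = 0.0269, and 0.58, limma adjusted p = 0.0221). Its inhibitor Spint2 fell in TAI (-0.45, limma adjusted p = 0.0336), with -0.32 in TAI/IVIg (limma adjusted p = 0.0821), and the second inhibitor, Spint1, rose in TAI/IVIg (0.46). The protease gene Prss8 fell in TAI/IVIg (-0.94, limma adjusted p = 0.0458). Together, 1 of these 5 tested genes was called higher and 1 lower in TAI, and 3 higher and 1 lower in TAI/IVIg. Among 11 genes of junctional actomyosin, 1 was called higher and 1 lower in TAI, and 0 higher and 2 lower in TAI/IVIg. The GTPase gene Rac1 rose in TAI (0.71) and Cdc42 fell there (-0.37). In TAI/IVIg they were at 0.47 and -0.28 without a call (limma adjusted p = 0.0914 and 0.075). There every mouse was above the controls in Rac1 and below them in Cdc42. The myosin light chain kinase gene Mylk, which smooth muscle also expresses, fell in TAI/IVIg (-0.84), and Myl12a, a regulatory light chain, fell too (-0.60). The summed smooth muscle markers were at 112 to 552 FPKM in these mice and 480 to 619 FPKM in the control mice, and their part in the Mylk difference was not tested.

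The falls among these genes depended on the scaling. With library medians set equal, the calls among the 90 became 28 higher and 1 lower in TAI, and 35 higher and 1 lower in TAI/IVIg. Among the falls named above, Ybx3 was still called in both comparisons, while Pard6a, Nectin2, Spint2, Cdc42, Ovol2, Cdx1, Cdx2 and Klf5 in TAI, and Pard6a, Prkci, Ildr1, Nectin1, Nectin2, Pvr, Pkp1, Prss8, Mylk, Myl12a, Cdx1, Grhl2 and Klf5 in TAI/IVIg, kept their sign and lost the call. The named rises kept their calls under that scaling. With the replicate block, the calls of Prss8 (adjusted p = 0.0817) and Mylk (0.0528) in TAI/IVIg were lost, as was that of Epcam. Those of Prss8 and Mylk were also lost without the filter (0.103 and 0.0787), with quantile normalization (0.382 and 0.117) and in the model of the 6 mice compared (0.0567 and 0.0623). Epithelial scaling, median-ratio library sizes and leaving out any of several mice removed both calls as well.

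**Figure D4:**
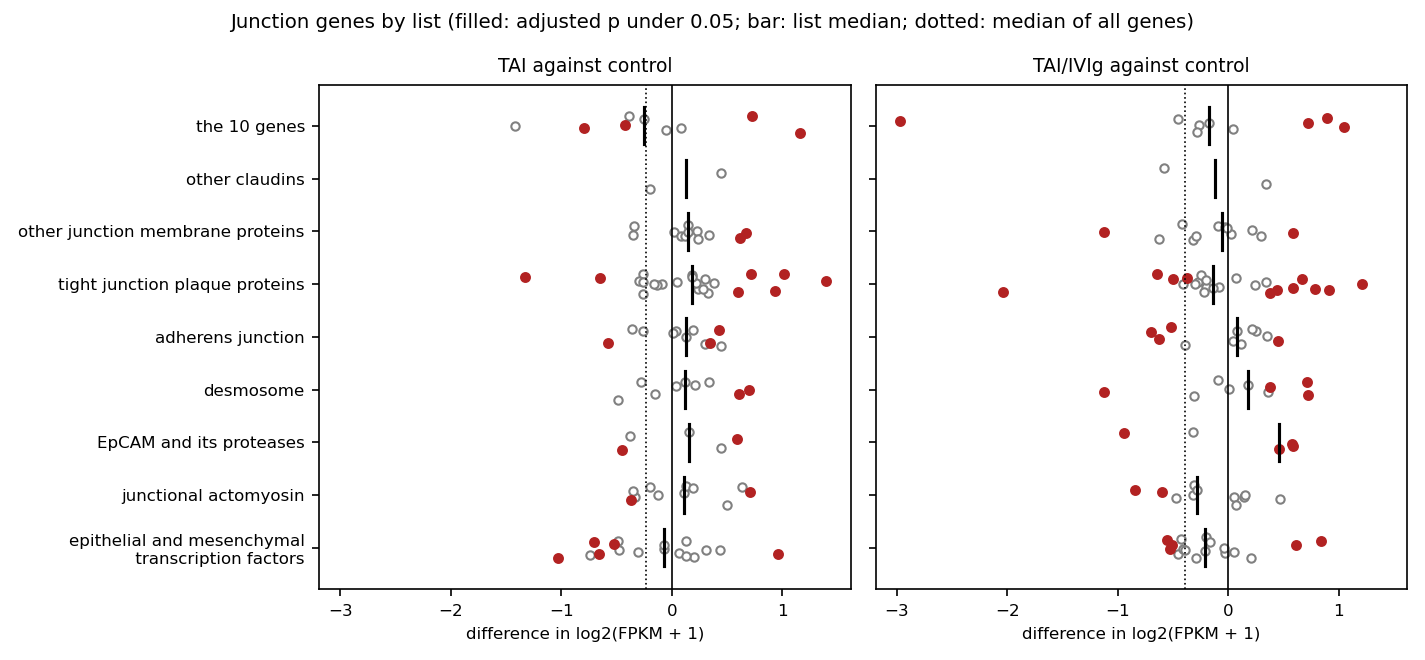
Differences in log2(FPKM + 1) (horizontal axis) of every tested junction gene by list, for TAI and TAI/IVIg against control. Filled points had an adjusted p below 0.05, bars are list medians and the dotted line is the median of all genes. Most list medians lay to the right of the dotted line, while Cldn2, at -2.97, was the leftmost point for TAI/IVIg.

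Summed levels of cell type markers also differed between the groups, and the part of tissue composition in these results was not tested. Over all mice, Olfm4 supplied 43.7% of the crypt and cycling sum. Defa24 supplied 44.5% of the Paneth cell sum and Fabp2 47.1% of the enterocyte sum. The 6 crypt and cycling cell markers, of which 4 passed the filter and none was at 0 in any mouse, summed to 22.3 to 95.4 FPKM in the control mice, 6.86 to 13.2 FPKM in the TAI mice and 2.96 to 6.71 FPKM in the TAI/IVIg mice. Paneth cell markers summed to 974 to 5125, 1846 to 5002 and 128 to 1368 FPKM, and the 8 enterocyte markers to 14192 to 22629, 30568 to 50487 and 43700 to 49590 FPKM. In both irradiated groups, mouse 2 was the highest in Cldn2, in the crypt and cycling markers and in the Paneth cell markers. It was also the lowest in the enterocyte markers and in Cldn7. Control mouse 2 was the highest in Cldn2 and in both marker sums, but control mouse 3 was the lowest in enterocyte markers and Cldn7. Cldn2 differed little between the control mice (47.8, 54.5 and 54.1 FPKM). Their crypt and cycling markers were at 22.3, 95.4 and 43.3 FPKM and their Paneth cell markers at 988, 5125 and 974 FPKM. Leukocyte markers summed to 33.4 to 185, 17.4 to 49.7 and 12.1 to 55.4 FPKM. The 6 pan-epithelial markers summed to 4500 to 5242, 3906 to 4253 and 3856 to 4486 FPKM, lower in every irradiated mouse than in any control mouse. Among them, mean Krt8 went from 1838 FPKM to 1207 and 1206 FPKM, and mean Krt19 from 729 FPKM to 211 and 119 FPKM. Epcam was higher in every irradiated mouse, and Cdh1 overlapped between the groups. The 5 markers of regenerative epithelium, of which Ly6a supplied 90.9%, summed to 1227 to 1460 FPKM in the control mice, 167 to 235 FPKM in the TAI mice and 32.5 to 139 FPKM in the TAI/IVIg mice, with no overlap among the groups. Fibroblast markers summed to 56.9 to 81.5, 62.3 to 81.0 and 19.9 to 40.3 FPKM, lower in every TAI/IVIg mouse than in any other.

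Scaled to the mean of Epcam, Cdh1, Krt8 and Krt18 in each mouse, Cldn4 and Cldn7 were still called in both comparisons, Cldn2 and Cldn15 were still called in TAI/IVIg against control, and Cldn23 and Marveld2 were no longer called in TAI. That scale was itself uneven, since Krt18 was at 160 to 175 FPKM in the control mice and at 37.3 to 70.4 FPKM in the TAI/IVIg mice.

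**Figure D5:**
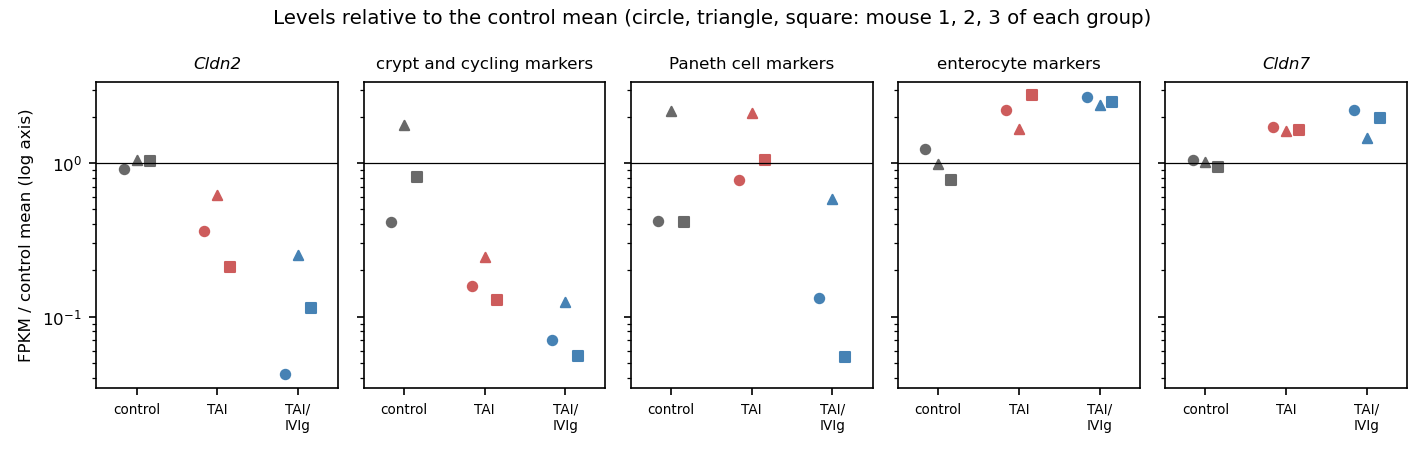
Levels relative to the control mean (vertical axis, log scale) of Cldn2, of the summed crypt and cycling, Paneth cell and enterocyte markers, and of Cldn7, with a symbol for the mouse number in each group. Mouse 2 of both irradiated groups was the highest of its group in Cldn2 and in the crypt and cycling markers (13.2 and 6.71 FPKM).

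The genes with the pattern closest to the called members that fell and rose most in TAI were found by the root mean square distance of centred log2(FPKM + 1) over the 9 mice, among 6398 genes with a mean FPKM of at least 5. For Cldn23 they were Psmb10, Lrrc75a and Gm10053, at distances of 0.17, 0.18 and 0.20, beside a spread of Cldn23 itself of 0.42. For Cldn4 they were Rhob, Slc25a22 and Skil, at 0.16, 0.17 and 0.17, beside a spread of 0.65. Psmb10 encodes a subunit of the immunoproteasome, Rhob a small GTPase and Skil a repressor of TGF-β signalling. Rhob went from 43.8 FPKM in control to 108 FPKM in TAI and 91.4 FPKM in TAI/IVIg mice, and Skil from 13.3 FPKM to 32.7 and 35.3 FPKM.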

How the data were processed

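Jejunal RNA of 9 mice was analysed, with groups and replicate numbers from the labels. The authors deposited FPKM per gene and mouse, not pooled. The submitters' processing notes name FastQC, Trimmomatic, STAR, featureCounts and DESeq2 and the builds mm10 and GRCm38, without versions or roles. The strand setting of the counting is not given in the sources used here. All columns of values were used (0 left out).

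Whole reads were recovered from the FPKM values (100% of them within 0.01 of a whole read), which gave the depth. The implied gene lengths equalled the summed exons of GENCODE M21 for 98.2% of the genes with a symbol, so its GRCm38 coordinates are given. A model with a term per group and all 9 mice was fitted by limma 3.58.1 (R 4.3.3, trended) to log2 of FPKM plus a pseudocount of 1, for genes that reached 1 FPKM in 3 mice or more, with Benjamini-Hochberg adjustment over all of them. Intervals are 95% confidence intervals of limma. Its p-values test a group difference against the spread between mice within the groups, which limma moderates over all genes tested. The steps were tested on simulated data in which few genes were changed and the dispersion was fixed, a setting that differs from these data.

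Mice with equal replicate numbers were compared in how they departed from their group means, and r was 0.271, 0.241 and 0.308 for control with TAI, and -0.296 to 0.201 for TAI/IVIg with either. Control and TAI mice of different numbers gave -0.336 to 0.146, and a TAI/IVIg mouse reached 0.408 with a control mouse of another number. With 3 mice a group, these values cannot show that the numbers pair mice. No label says what equal numbers share, and the main model has no block for them. The alternatives were no filter, a minimum mean of 5 FPKM, a pseudocount of 0.1, 3 other scalings of the FPKM values (library medians set equal, quantile normalization, 4 epithelial genes), a replicate block, no trend, a model of the 6 mice compared, limma voom on the reads (library sizes as totals or median ratios), and each mouse left out.

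The members, gene lists and tests were chosen with earlier results of these data known. All 10 members and the other claudins that passed the filter are named, with up to 3 rises and 3 falls per further list among genes called against control, and the 3 genes nearest in pattern to the called members that rose and fell most in TAI. Motifs were sought in RefSeq promoter windows. The values of some further listed genes are left out and not reported here.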

Additional observations from a re-analysis of the deposited data

How the results depend on the processing

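In TAI against control, the 4 calls among the 10 genes became 2 without the filter (Cldn7, and Cldn8, which was then tested and called lower), 2 with library medians set equal, with quantile normalization, with epithelial scaling and with limma voom on median-ratio library sizes, 5 with the replicate block, in the model of the 6 mice compared and with limma voom on total library sizes, and 6 with a mean FPKM of at least 5, and ran from 0 to 5 with each mouse left out (0 without TAI mouse 1). The 23 calls among the other junction genes became 12 without the filter and 25 with the block, and ran from 6 (without TAI mouse 1) to 23 with a mouse left out. In TAI/IVIg against control, the 4 calls ran from 2 (without control mouse 3 or TAI/IVIg mouse 3) to 4, and the 32 calls among the others became 21 without the filter and ran from 13 (without control mouse 3) to 30. The replicate block changed no call of the 10 genes but that of Cldn2. Among the named genes of other lists, 111 values in TAI and 130 in TAI/IVIg against control fell short of the threshold under an alternative, 1 gene and alternative at a time, and no called one changed sign. Cldn2 in TAI was also called in the fit of 6 mice (0.0183), with a mean FPKM of at least 5 (0.0497) and with limma voom on total library sizes (0.0363), and Cldn3 in TAI with the first 2 of these (0.0473 and 0.0489). The call of Cldn4 was lost without the filter in both comparisons (0.0604 and 0.0671), and that of Cldn15 too (0.0613). Signs also turned, among differences that were not called. With library medians set equal these were Cldn15 (0.24), Ocln (0.04) and Cldn5 (0.09) in TAI against control, Cldn3 (0.32), Cldn23 (0.04), Tjp1 (0.23) and Marveld2 (0.21) in TAI/IVIg against control, and Cldn4 (0.09) and Cldn12 (0.09) in TAI/IVIg against TAI. Quantile normalization turned Cldn15 (0.15), Cldn3 (0.03), Tjp1 (0.07), Marveld2 (0.12) and Cldn12 (0.01), and epithelial scaling Cldn15 (0.12), Cldn3 (0.27), Tjp1 (0.18), Marveld2 (0.16), Cldn4 (0.15) and Cldn12 (0.15), in the same comparisons. Median-ratio library sizes turned Cldn15 (0.19), Cldn3 (0.35), Cldn23 (0.02), Tjp1 (0.23), Marveld2 (0.20), Cldn4 (0.16) and Cldn12 (0.14). With a mouse left out, differences crossed 0 for Cldn15 (-0.20 to 0.11, positive without control mouse 2 or TAI mouse 3) and Cldn5 (-0.34 to 0.10) in TAI against control, Ocln in TAI/IVIg against control (-0.05 to 0.13), and Cldn4 (-0.49 to 0.24) and Cldn12 (-0.26 to 0.01) in TAI/IVIg against TAI. The causes were not tested. In reads not divided by gene length, the shares of claudin transcripts moved for Cldn2 in the control (12.8%) and TAI mice (3.94%) and for Cldn3 in the control (11.6%), TAI (7.01%) and TAI/IVIg mice (7.11%), since Cldn2 has the longer exons. The depth limits Cldn8, which had 0 to 13 reads a mouse.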
